A study of Mus musculus with 4 samples.

Results

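The 35 genes described here encode the machinery that forms autophagosomes, the cargo receptors that load them, the tethers that bring them to the lysosome, and a pair of transcription factors that regulate these genes. They are a list of symbols whose rule uses no measured difference, although the list was drawn up with earlier results of these data known, and each was represented by its RefSeq transcript record with the highest mean over the 4 libraries. All 35 were found among 23466 gene symbols, and all 35 were among the 18127 genes with enough signal to be tested, that is at least 1 scaled read equivalent in 2 or more libraries. A scaled read equivalent is the deposited value divided by 42, the number of aligned bases that 1 read contributed, after the authors' scaling between libraries.

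RNA came from frozen hippocampus of C57BL/6N mice at postnatal day 30. Mutants 38 and 39 are labelled Atp6ap2Camk2aCre/0, with ko in the title and conditional het in the condition field, and wild-types 11 and 73 are labelled wt with no allele or Cre given. Camk2a drives Cre in forebrain excitatory neurons, so glia, vessels and interneurons of the whole tissue are outside the targeted cells, and fewer cells of a type cannot be told apart from less RNA per cell. Atp6ap2 is an accessory subunit of the vacuolar proton pump that acidifies the lysosome. Whether transcripts of the autophagy machinery differ when it is targeted is the question that the comparison addresses.

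In macroautophagy the ULK kinase complex starts the process, a class III phosphoinositide 3-kinase marks the site with PI3P, and vesicles and lipid transfer proteins supply membrane. A pair of ubiquitin-like conjugation reactions then attaches ATG8 proteins (the LC3 and GABARAP families) to that membrane, where cargo receptors bind them. The closed vesicle fuses with an acidic lysosome, and much of the control runs through phosphorylation, lipidation and protein turnover, which RNA levels do not record. Neurons depend on basal autophagy, and its loss in the brain is known to cause accumulation of ubiquitinated protein.

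The libraries held between 10023033 (wild-type 73) and 18339838 (wild-type 11) unscaled read equivalents over genes. Atp6ap2 had levels of 2312 and 2637 in wild-types 11 and 73 against 2551 and 2522 in mutants 38 and 39, a log2 fold change of 0.04 ± 0.10 (SE, n = 2 per group). No drop was seen, but the value covers the full transcript and all cell types, so it is a weak check, and mutant here means the libraries labelled so. All 12 hippocampal excitatory neuron markers had more than 100 scaled read equivalents in every library, with a summed level of 65751 and 75716 in wild-types 11 and 73 against 62648 and 70801 in mutants 38 and 39. Both mutants were below both wild-types for 3 of the 12, against 16.5% of all genes. These were Fibcd1 (log2 fold change -0.60, limma adjusted p = 0.42), C1ql2 (-0.33, adjusted p = 0.989) and Grik4 (-0.16, adjusted p = 0.989). Wfs1, another of the 12, was at 1069 in mutant 38 and 2885 in mutant 39. Choroid plexus markers, from the epithelium of that plexus inside the ventricles, divided each group. Of the 20 markers, 19 were higher in wild-type 11 and mutant 38 than in wild-type 73 and mutant 39. The summed level of the 20 was 76058 and 126718 in the first pair against 7947 and 8191 in the second. Of 10 myelinating oligodendrocyte markers, 10 had both mutants above both wild-types, against 16.8% of all genes. Their summed level was 89824 and 64768 in wild-types 11 and 73 against 110584 and 97910 in mutants 38 and 39. The 8 thalamus markers summed to 5685 in mutant 38 against 2074 to 2114 in the other libraries. Both mutants were above both wild-types for 2 of the 8, against 16.8% of all genes. These were Slc17a6 (log2 fold change 1.13, limma adjusted p = 0.123) and Rora (0.60, adjusted p = 0.989). Calb2, of the same list, had a log2 fold change of -0.82, with overlapping groups. Of 7 red blood cell markers, 5 had both mutants above both wild-types, against 16.8% of all genes. Their sum was 8616 and 5936 in wild-type against 9120 and 10826 in mutant. Hba-a1 and Hba-a2, Hbb-b1 and Hbb-bs, and Hbb-b2 and Hbb-bt had the same or nearly the same values in every library. This count and this sum therefore hold the same globin signal repeatedly. None of the markers in these lists passed the limma test. Values for the autophagy genes are given with these differences in place, and the part of any of these cell types in them was not tested.

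None of the autophagy genes passed the test between mutant and wild-type. With limma, 0 of 35 had a Benjamini-Hochberg adjusted p below 0.05, and their adjusted p lay between 0.989 and 0.999. Over all 18127 genes 1 passed (0.00552%), and leaving out wild-type 11, mutant 38 or mutant 39 gave 37, 8 or 7, with 0 autophagy genes among them each time. At an unadjusted limma p below 0.05, 2 autophagy genes were higher in the mutants, against 2.18% of all genes, and 0 were lower, against 1.75% of all genes. Both lay just under that limit, and whether they did depended on the processing. In the authors' deposited table the smallest p of any of the 35 was 0.0997, while 2.15% of all genes tested had a p below 0.05 there.

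The differences were small in both directions. The 35 log2 fold changes ran from -0.23 (Atg4d) to 0.30 (Atg4c), 17 were above 0 and 18 below, and the median was -0.00086, against 0.0067 for all genes tested, of which 51.3% were above 0. All fold changes below compare 2 mutant with 2 wild-type libraries, with the standard error (SE) and the 95% interval from limma. The standard errors ran from 0.09 to 0.31 with a median of 0.12. All 35 of the 95% intervals lay inside a 2-fold change either way, as did 70.2% of intervals over all genes, and 30 of 35 lay inside a 1.5-fold change, against 49.9% over all genes. Among the 12994 genes whose mean level lay within the range of these 35, 93.1% had an interval inside a 2-fold change and 68.4% inside a 1.5-fold change.

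Some members did separate by group without passing the test. Both mutants lay above both wild-types for 9 of the 35, or 25.7%, against 16.8% of all genes, and below both for 4 of the 35, or 11.4%, against 16.5% of all genes. The 9 were Gabarap, Atg4c, Optn, Ulk2, Rb1cc1, Nbr1, Uvrag, Wipi1 and Tfeb, and the 4 were Atg4d, Atg5, Atg2a and Vps18. With a library left out the groups overlap less often for any gene. Without wild-type 11 the counts were 15 higher and 12 lower of 35, against 36.6% and 36.8% of all genes. Without wild-type 73 they were 15 and 9, against 32.9% and 30.8%. Without mutant 38 they were 16 and 5, against 31.3% and 31.5%, and without mutant 39 they were 11 and 13, against 34.6% and 32.2%.

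**Figure D1:**
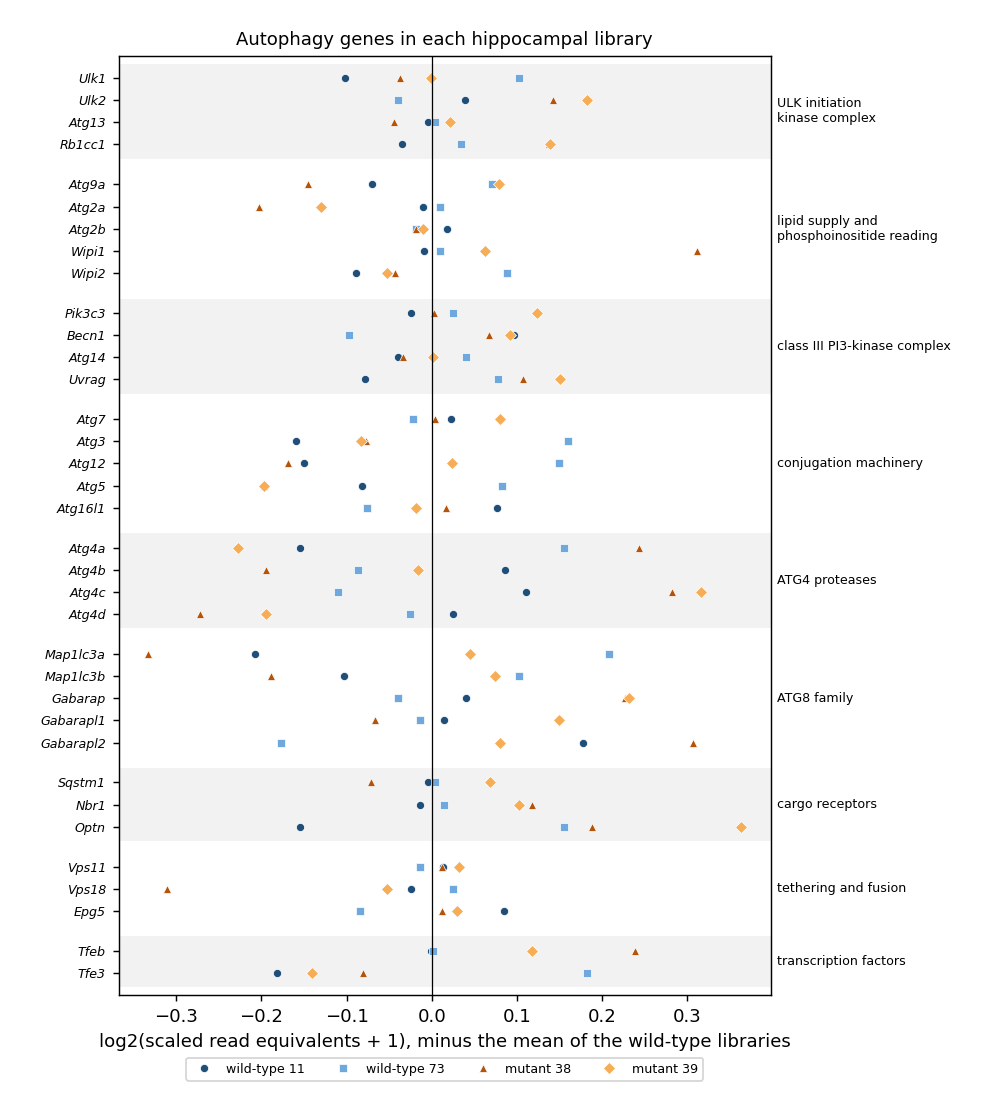
Level of each autophagy gene in each of the 4 libraries, as log2(scaled read equivalents + 1) minus the mean of the wild-type libraries, grouped by role on the right. Gabarap and Atg4c have both mutants to the right of both wild-types, Atg4d has both to the left, and for Map1lc3a wild-type 11 and mutant 38 lie left of wild-type 73 and mutant 39.

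**Figure D2:**
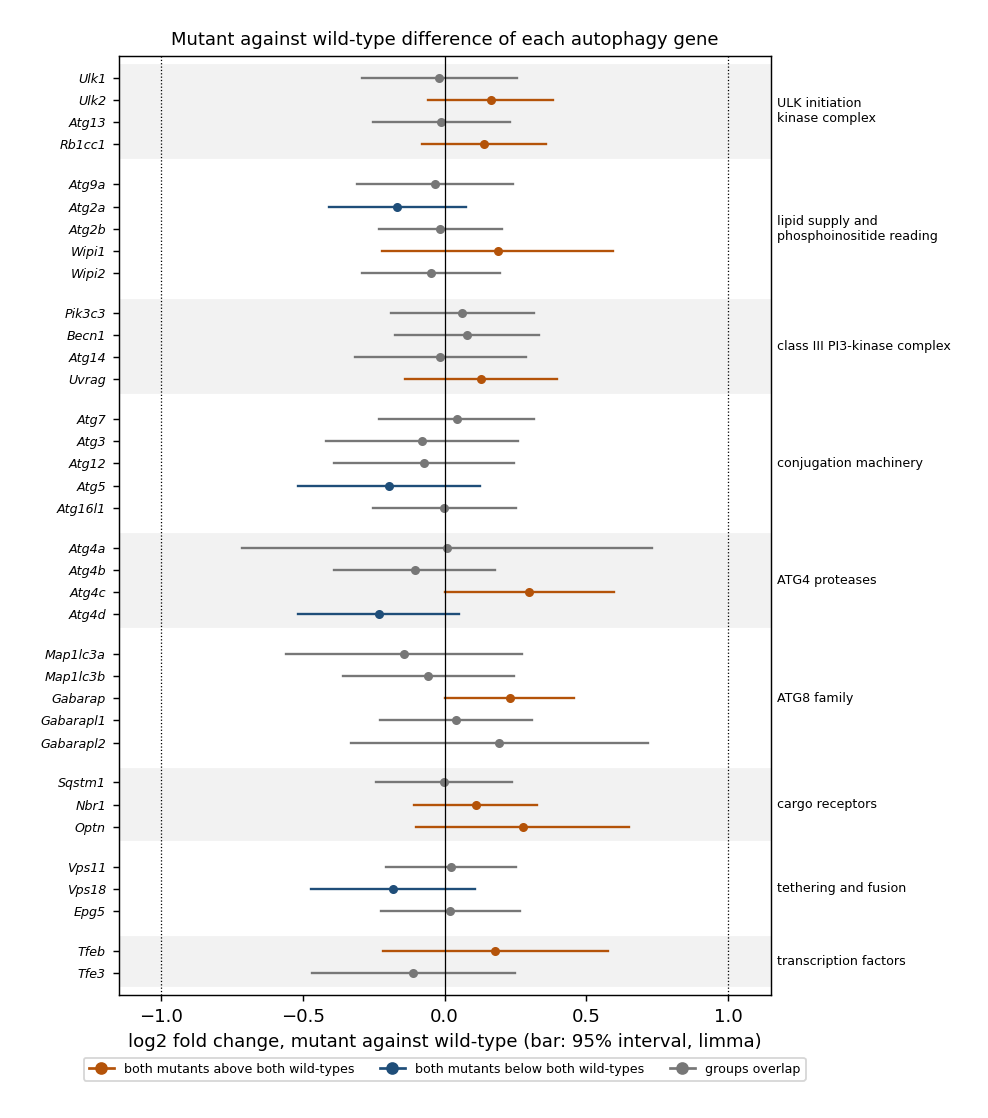
Log2 fold change of mutant against wild-type for each autophagy gene, with its 95% interval from limma (n = 2 per group); the dotted lines mark a 2-fold change. All 35 intervals lie between the dotted lines, and 9 genes have both mutants above and 4 have both mutants below both wild-types.

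Among the 4 genes of the ULK initiation complex, the groups did not overlap for 2, both higher in the mutants. Over all genes 16.8% did so in that direction. Ulk2, a kinase that starts autophagosome formation, was at 2566 and 2429 in wild-types 11 and 73 and at 2755 and 2832 in mutants 38 and 39. The log2 fold change of Ulk2 was 0.16, with an SE of 0.09 and an interval from -0.06 to 0.38, at a limma adjusted p of 0.989. Rb1cc1, which encodes the scaffold FIP200, was at 2305 and 2418 in wild-type and at 2597 and 2599 in mutant, a log2 fold change of 0.14 ± 0.09. The mutant libraries nearly coincided for Rb1cc1, and its interval, from -0.08 to 0.36, included 0. Ulk1, the related kinase, had 772 and 889 against 808 and 828 and a log2 fold change of -0.02 ± 0.12, and Atg13, the adaptor between kinase and scaffold, had -0.01 ± 0.10. Both mutants lay between the wild-types for Ulk1, and the mutants of Atg13 lay on either side of its wild-types.

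Genes of membrane supply and PI3P reading had log2 fold changes between -0.17 and 0.19. Atg2a, one of the bridge-like lipid transfer proteins, was at 956 and 969 in wild-types 11 and 73 and at 836 and 879 in mutants 38 and 39. For Atg2a the log2 fold change was -0.17, with an SE of 0.10 and an interval from -0.41 to 0.07 (limma adjusted p = 0.989). Its paralog Atg2b was nearly level over the libraries, with 2257 and 2200 in wild-type and 2200.2 and 2212 in mutant. Atg9a, the lipid scramblase of the vesicles that seed the membrane, had 1735 and 1913 against 1647 and 1924, low in the libraries rich in choroid plexus markers and high in the others. Wipi1, which reads PI3P, had 169 and 171 against 211 and 178, so that its higher mutant mean came mostly from mutant 38, and Wipi2 had a log2 fold change of -0.05 ± 0.10.

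In the class III PI3-kinase complexes no gene had a limma unadjusted p below 0.29. Uvrag, a subunit of the complex that acts later on endosomes and autophagosomes, was at 650 and 724 in wild-types 11 and 73 and at 739 and 761 in mutants 38 and 39. The log2 fold change of Uvrag was 0.13, with an SE of 0.11 and an interval from -0.14 to 0.40 (limma adjusted p = 0.989). Mutant 38 stood barely above wild-type 73, and without wild-type 11 the value was 0.05. Becn1, the regulatory subunit Beclin 1, had 1623 and 1419 against 1590 and 1618, Pik3c3, the lipid kinase itself, had 829 and 858 against 845 and 919, and Atg14, which directs the complex to the forming autophagosome, had 348 and 368 against 350 and 359. The groups overlapped for all 3.

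Of the 5 genes of the conjugation machinery, 4 had a log2 fold change below 0, while 51.3% of all genes were above 0. The groups did not overlap for 1 of the 4, against 16.5% of all genes in that direction. Atg16l1 counted among the 4 with -0.00086, and it was above 0 with its other transcript records. Without wild-type 73 the log2 fold changes of Atg3 and Atg12 were both 0.08. Atg5, which with Atg12 and Atg16l1 makes up the ligase for ATG8 proteins, was at 335 and 376 in wild-types 11 and 73 and at 309 and 310 in mutants 38 and 39. For Atg5 the log2 fold change was -0.20, with an SE of 0.14 and an interval from -0.52 to 0.12 (limma adjusted p = 0.989). The mutant values nearly coincided, and the distance to them from wild-type 73 was larger than from wild-type 11. Atg12 had 1206 and 1484 against 1190 and 1360, Atg3, the E2-like enzyme, had 448 and 559 against 474 and 472, Atg7, the E1-like enzyme, had 518 and 502 against 512 and 539, and Atg16l1 had 1067 and 959 against 1023 and 999. For Atg3 and Atg12 the highest library was wild-type 73, and for Atg16l1 it was wild-type 11.

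The ATG4 proteases, which trim new ATG8 proteins and release them from membrane again, included both ends of the range of the 35 genes. Atg4c was at 538 and 462 in wild-types 11 and 73 and at 607 and 621 in mutants 38 and 39. The log2 fold change of Atg4c was 0.30, with an SE of 0.13 and an interval from 0.0018 to 0.60, at a limma unadjusted p of 0.0489 and an adjusted p of 0.989. Wild-type 73 was the lowest library, and the log2 difference was 0.43 between mutant 39 and wild-type 73 and 0.17 between mutant 38 and wild-type 11. Atg4d was at 485 and 468 in wild-type and at 394 and 416 in mutant, a log2 fold change of -0.23 ± 0.12 (95% interval -0.52 to 0.05; limma adjusted p = 0.989). Thus Atg4c and Atg4d lay on opposite sides of the wild-type libraries, and neither passed the test. Atg4b, the protease with the broadest activity, had 972 and 863 against 800.3 and 905, with overlapping groups.

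Atg4a had few reads, from 32.3 to 63.6 unscaled read equivalents per library, and its 95% interval of -0.71 to 0.73 was the widest among the 35. In the GENCODE M21 transcript models, 67.9% of the 42-base windows of Atg4a also occur in Atg4a-ps, so reads from these genes cannot be separated in most of its length. Differences of Atg4a inside that interval are not excluded at this depth, and the interval is no limit of detection for the adjusted test.

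Of the 5 ATG8 genes, Gabarap alone had groups that did not overlap, higher in the mutants, against 16.8% of all genes in that direction. Gabarap was at 1356 and 1282 in wild-types 11 and 73 and at 1543 and 1548 in mutants 38 and 39. For Gabarap the log2 fold change was 0.23, with an SE of 0.10 and an interval from 0.0015 to 0.46, at a limma unadjusted p of 0.0489 and an adjusted p of 0.989. Both mutants stood above both wild-types by more than the distance between the wild-types, yet 2.18% of all genes reach this unadjusted threshold in the higher direction. In the authors' deposited table Gabarap had a p of 0.0997, the smallest of the 35.

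The LC3 genes, whose protein is the standard marker of autophagosomes, followed another split. Map1lc3a was at 1810 and 1659 in wild-type 11 and mutant 38, the libraries rich in choroid plexus markers, and at 2414 and 2156 in wild-type 73 and mutant 39. Map1lc3b was at 2071 and 1950 in the first pair and at 2388 and 2342 in the second. Between mutant and wild-type their log2 fold changes were -0.14 ± 0.18 and -0.06 ± 0.13 (SE, n = 2 per group; 95% intervals -0.56 to 0.27 and -0.36 to 0.25). For both genes the distance between these pairs of libraries was larger than that between mutant and wild-type.

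Gabarapl1, the ATG8 gene with the most signal, was at 8592 and 8422 in wild-types 11 and 73 and at 8125 and 9433 in mutants 38 and 39, with a log2 fold change of 0.04 ± 0.11 (95% interval -0.23 to 0.31). Gabarapl2 was at 118 and 92.3 in wild-type and at 129 and 110 in mutant, with a log2 fold change of 0.19 ± 0.22. Per kilobase of the matched GENCODE M21 transcript model, the mean level over the 4 libraries was 4749 ± 308 for Gabarapl1, 1807 ± 306 for Map1lc3a, 1060.1 ± 99.3 for Gabarap, 864 ± 83.5 for Map1lc3b and 67.1 ± 9.31 for Gabarapl2 (SD, n = 4). The ranges of neighbours in this order did not overlap, and the closest were those of Gabarap (949 to 1146) and Map1lc3b (770.3 to 943), whose order also rests on the model lengths. In these models 18.0% of the 42-base windows of Gabarapl2 and 14.7% of those of Map1lc3b also occur in transcripts of other genes, most of them in a processed pseudogene (Gm3724 for Gabarapl2 and Gm6055 for Map1lc3b), against 0% for Gabarap, Gabarapl1 and Map1lc3a. How the authors' pipeline treated reads with several matches is not given in the sources used here, so the low level of Gabarapl2 is uncertain.

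**Figure D3:**
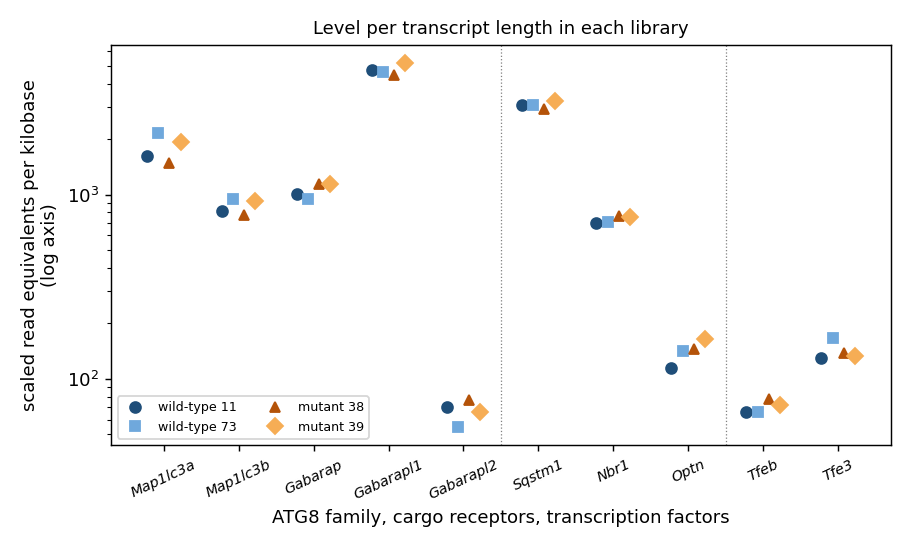
Scaled read equivalents per kilobase (log axis) in each of the 4 libraries for the ATG8 genes, the cargo receptors and the transcription factors, divided by the length of the matched GENCODE M21 transcript. Gabarapl1 and Sqstm1 are the highest, at 4749 and 3058 on average, and Gabarapl2 and Tfeb the lowest of these 10, at 67.1 and 70.6.

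The cargo receptors bind ubiquitinated cargo on one side and ATG8 proteins on the other. Sqstm1, which encodes p62, was at 6211 and 6245 in wild-types 11 and 73 and at 5929 and 6532 in mutants 38 and 39. The log2 fold change was -0.0010, with an SE of 0.10 and an interval from -0.24 to 0.24. The wild-type libraries lay between the mutant ones, and changes inside that interval are not excluded. Nbr1 was at 3247 and 3313 in wild-type and at 3558 and 3520.2 in mutant, with a log2 fold change of 0.11 ± 0.09. Optn, which encodes optineurin, was at 276 and 342 in wild-types 11 and 73 and at 349.9 and 395 in mutants 38 and 39, with 0.28 ± 0.16 (95% interval -0.10 to 0.65; limma adjusted p = 0.989). For Optn mutant 38 was close to wild-type 73, and the log2 fold change was 0.12 without wild-type 11 and 0.43 without wild-type 73. Per kilobase the receptors ranked Sqstm1 (3058 ± 121), Nbr1 (733 ± 32.8) and Optn (141 ± 20.4, SD, n = 4), with no overlap between neighbours.

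Of the 3 genes of tethering and fusion, 1 had both mutants below both wild-types, against 16.5% of all genes. Vps18, a core subunit of the HOPS complex that tethers late endosomes and autophagosomes to lysosomes, was at 909 and 941 in wild-types 11 and 73 and at 746 and 892 in mutants 38 and 39. The log2 fold change of Vps18 was -0.18, with an SE of 0.12 and an interval from -0.47 to 0.11 (limma adjusted p = 0.989). Mutant 38 stood apart from the other 3 libraries, and without it the log2 fold change was -0.05. Vps11, another core subunit of HOPS, was nearly level, with 1113 and 1092 in wild-type and 1111 and 1127 in mutant. Epg5, which tethers autophagosomes to late endosomes and lysosomes, had 1824 and 1622 against 1735 and 1755, with both mutants between the wild-types.

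TFEB and TFE3 are related transcription factors that turn on lysosomal and autophagy genes once they enter the nucleus, a step that RNA levels do not show. Tfeb was at 155 and 155 in wild-types 11 and 73 and at 183 and 168 in mutants 38 and 39, with a log2 fold change of 0.18, an SE of 0.17 and an interval from -0.22 to 0.58 (limma adjusted p = 0.989). Both mutants were above the wild-types, and the interval included 0. Tfe3 was at 439 and 566 in wild-type and at 471 and 452 in mutant, with -0.11 ± 0.15, and both of its mutant values lay between the wild-type ones. Per kilobase Tfe3 had 142 ± 16.9 and Tfeb 70.6 ± 5.72 (SD, n = 4).

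These factors bind E-box sequences with the core CACGTG. RefSeq promoter windows (250 bases before to 50 after the start site, GRCm38.p6) were matched for 27 of the 35 genes in 33 windows. The letters CACGTG, which read the same on both strands, occurred in 4 of the 33 windows, or 12.1%, against 7.15% of 32851 windows of all genes. The longer TCACGTGA, which contains it and also reads the same on both strands, occurred in 1 of them, or 3.03%, against 0.974% of all. The stretches around the E-boxes are shown because they are the members' windows with the core that TFEB and TFE3 bind, with CACGTG in capitals, 5′ to 3′ on the strand of the gene, and a match is a description of letters and not a bound site.
Atg3: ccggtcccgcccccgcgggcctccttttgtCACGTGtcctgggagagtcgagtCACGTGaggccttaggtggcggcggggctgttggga
Atg7: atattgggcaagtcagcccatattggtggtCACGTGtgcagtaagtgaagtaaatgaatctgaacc
Atg5: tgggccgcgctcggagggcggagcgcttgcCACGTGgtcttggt
Atg14: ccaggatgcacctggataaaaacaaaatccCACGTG
The Atg3 stretch is at chr16:45158705-45158793 on the plus strand, that of Atg7 at chr6:114670934-114670999 (plus), that of Atg5 at chr10:44268295-44268338 (plus) and that of Atg14 at chr14:47568430-47568465 (minus). They lie upstream of the start site of their gene, except that the Atg14 E-box spans it. The log2 fold changes of these 4 genes were -0.08 ± 0.14 for Atg3, 0.04 ± 0.11 for Atg7, -0.20 ± 0.14 for Atg5 and -0.02 ± 0.13 for Atg14 (SE, n = 2 per group). Of the 4, Atg5 alone had groups apart, with both mutants below both wild-types, against 16.5% of all genes in that direction.

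**Figure D4:**
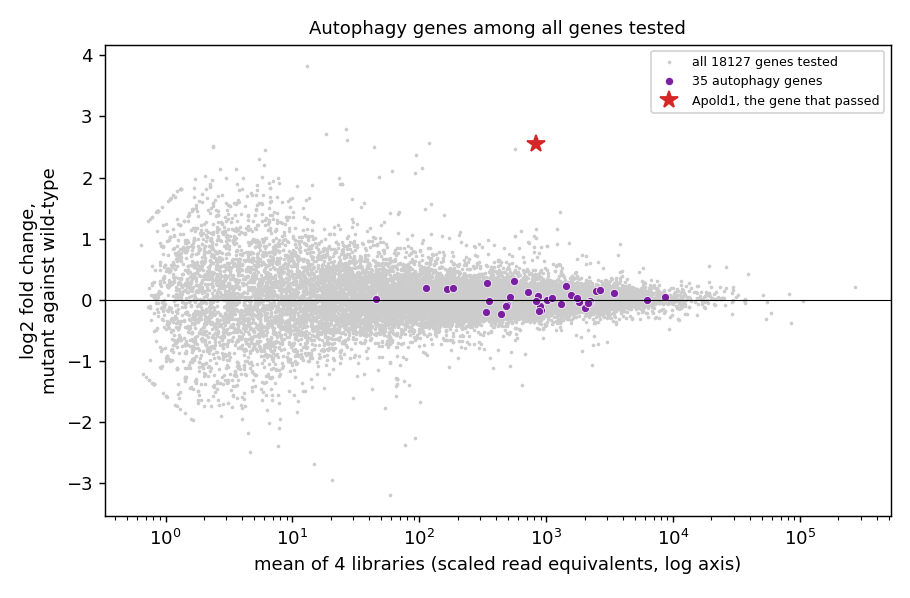
Log2 fold change of mutant against wild-type for all 18127 genes tested (grey), the 35 autophagy genes (purple) and Apold1, the gene that passed (star), against the mean level on a log axis. The autophagy genes lie between -0.23 and 0.30 and span mean levels from 45.8 (Atg4a) to 8643 (Gabarapl1) scaled read equivalents.

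Some of the 35 genes share sequence or position with others in GENCODE M21. For Atg9a, 47.9% of the 42-base windows also occur in Gm29253, a transcript on the same strand, and for Rb1cc1 11.3% occur in the processed pseudogene Gm13961. On the opposite strand, other genes overlap 51.5% of the exon bases of the Becn1 model (Cntd1), 23.6% of those of Atg4d (Kri1) and 20.7% of those of Gabarapl1 (1700101I11Rik). The library kit kept the strand per the labels' protocols, but the strand setting of the counting is not given in the sources used here. Reads from these genes and their partners cannot be told apart where this holds.

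A split between the libraries rich and poor in choroid plexus markers was seen for some of the 35 genes, and it was common over all genes as well. Wild-type 11 and mutant 38 were both below wild-type 73 and mutant 39 for 9 of the 35 genes, against 20% of all genes, and both above for 2, against 20.6% of all genes. The mean log2 difference between these pairs was -0.40 for Map1lc3a, -0.25 for Atg12, -0.23 for Map1lc3b and -0.18 for Atg9a, and it was smaller in size for Ulk1, Pik3c3, Sqstm1, Atg14 and Atg13. Gabarapl2 (0.29) and Atg16l1 (0.09) were higher in the choroid-rich libraries. These values come from 2 libraries on each side with no test, and the part of choroid plexus tissue in them was not tested.

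Within these pairs each mutant was also set against 1 wild-type. Between mutant 39 and wild-type 73, the libraries low in choroid plexus markers, the median log2 difference of the 35 genes was 0.05, and between mutant 38 and wild-type 11 it was -0.0020. In these pairs 17 of the 35 genes, or 48.6%, had differences of opposite sign, against 45.4% of all genes tested. Genes whose groups do not overlap have the same sign in both pairs by construction. Among those, Gabarap had 0.27 and 0.19, Atg4c 0.43 and 0.17, Optn 0.21 and 0.34, and Atg4d -0.17 and -0.30. Atg4a (-0.38 and 0.40), Tfe3 (-0.32 and 0.10), Atg3 (-0.24 and 0.08) and Atg4b (0.07 and -0.28) were among the 17 with opposite signs, and were chosen as examples after their values were seen. With the mean level of the choroid plexus markers as a covariate, 0 of the 35 genes passed in limma, and the smallest adjusted p was 0.570.

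**Figure D5:**
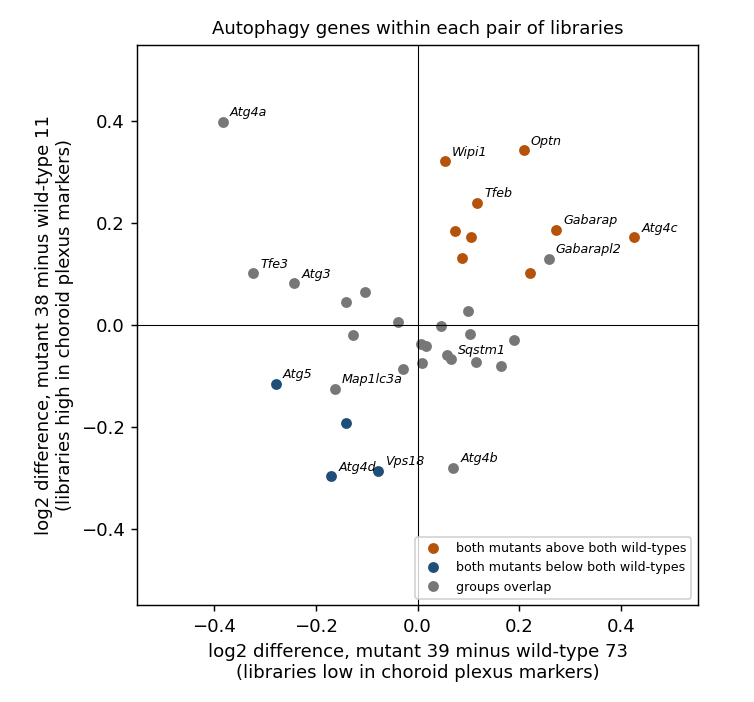
Log2 difference of each autophagy gene between mutant 39 and wild-type 73 (horizontal axis) and between mutant 38 and wild-type 11 (vertical axis), coloured by whether both mutants lay above or below both wild-types. Atg4c is at 0.43 and 0.17, Atg4d at -0.17 and -0.30, and 17 of the 35 genes have opposite signs, with Atg4a, Tfe3 and Atg3 at the upper left.

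A wider list of 53 other autophagy genes (further initiation, PI3-kinase, conjugation, receptor, fusion and nutrient-control genes) was read from the same fit. Of these 53, 0 passed in limma. At an unadjusted limma p below 0.05, 2 (3.77%) were higher and 0 lower, against 2.18% and 1.75% of all genes. A log2 fold change above 0 was seen for 33 (62.3%), against 51.3% of all genes, and the median was 0.04, against 0.0067. Both mutants lay above both wild-types for 10 (18.9%) and below both for 10 (18.9%), close to the 16.8% and 16.5% of all genes. Vmp1, a lipid scramblase of the endoplasmic reticulum needed for autophagosome formation, was at 1260 and 1043 in wild-types 11 and 73 and at 1513 and 1530 in mutants 38 and 39. For Vmp1 the log2 fold change was 0.41, with an SE of 0.12 and an interval from 0.13 to 0.69 (limma adjusted p = 0.989), and its p in the authors' deposited table was 0.00933. Stx17, the SNARE of the autophagosome that drives fusion with the lysosome, was at 479.9 and 412 in wild-type and at 572 and 575 in mutant, with 0.37 ± 0.13 (95% interval 0.07 to 0.67; limma adjusted p = 0.989). Both genes had both mutants above both wild-types, as Gabarap and Atg4c did.

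The other 4 named genes of the wider list missed the unadjusted threshold. Prkaa2, a catalytic subunit of the energy sensor AMPK, had 833 and 928 against 1029.9 and 1056, and Tollip, a ubiquitin-binding receptor, had 2500 and 2096 against 2613 and 2814. Calcoco1, a receptor for endoplasmic reticulum and Golgi, had 1398 and 1425 against 1243 and 1277, and 9430023L20Rik, the table's symbol for Atg101 of the ULK complex, had 443 and 451 against 375 and 401. Both mutants lay above both wild-types for Prkaa2 and Tollip and below them for Calcoco1 and 9430023L20Rik.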

How the data were processed

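The deposited table holds 31315 transcript records, with 1 column for each of 4 libraries and 1 p-value column named after DESeq, whose adjustment the header does not give. The library values are signal: in each library 100% of the deposited values were whole multiples of 1 step (within 0.05 of a step), with low values at multiples of 42, so they are aligned bases divided by a scaling factor, neither counts nor per length. GSNAP, DESeq2 and the build mm9 are named per the submitters' processing notes, with no versions or roles; how reads were assigned to transcripts, with which strand setting and annotation, is not given in the sources used here.

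Values were divided by 42 and tested as log2(value + 1) with limma 3.58.1 in R 4.3.3 (group as the only term, variance trend, two-sided, Benjamini-Hochberg over 18127 genes at 0.05). Plots were made with matplotlib 3.10.9 in Python 3.11.15. The fit was tested on simulated data. Fold changes on this scale understate those of genes with few reads.

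The rule for the members uses symbols and no measured difference, but the members and lists were chosen with earlier results of these data known, so no p was adjusted over a list. All 35 genes are named by role; full statistics go to those with an unadjusted p below 0.05 and to the smallest p of each role, and the 6 smallest of the wider list are named; others were chosen after their values were seen. The labels do not say that the samples came from separate animals, and p-values cover only the spread between them. No pair of libraries agreed within sampling noise (chi-square per degree of freedom 9.16 to 20.3), so all 4 were kept as separate. RefSeq promoters (GRCm38.p6) and GENCODE M21 transcripts (GRCm38) are another build than the authors', and model lengths may differ from theirs.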

Additional observations from a re-analysis of the deposited data

How the results depend on the processing

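Of the 35 genes, 0 passed in any of 16 limma fits with other settings, and the smallest adjusted p was 0.371 (Atg4c without wild-type 11). The number of genes called among all genes was 119 with the choroid plexus covariate, 12 with a robust prior, 0 without the variance trend, and between 1 and 37 with a library left out. With a library left out, 11 to 16 of the 35 had no overlap in the higher direction, against 31.3% to 36.6% of all genes. In the lower direction it was 5 to 13, against 30.8% to 36.8%. The median log2 fold change of the 35 then ran from -0.018 to 0.045. Between mutant 39 and wild-type 73 alone it was 0.053, a setting chosen after seeing the data, as was the other pair. Of 560 member values in the fits, 31 had another sign than the one reported, 25 of them with a library left out, in 17 genes whose reported log2 fold change was at most 0.14 in size; none of these values passed the test on either side, so no call reversed. Pseudocount, filter, scaling and choice of transcript record changed no call among the 35. The number of members with an unadjusted limma p below 0.05, reported as 2, did depend on the setting. It was 0 with a pseudocount of 0.1, equal totals, quantile normalization or no variance trend. It was 1 with a robust prior or at least 10 read equivalents in all 4 libraries, and 2 in the other fits of all 4 libraries. No paired analysis was possible because the replicate numbers 38, 39, 11 and 73 are not shared between the groups. Leaving out a library leaves 1 sample in a group, assumed to vary like the other group. The choroid plexus covariate was computed from these same 4 libraries, and its fit leaves 1 residual degree of freedom per gene. The 119 genes called with it are therefore an uncertain count. With 2 libraries a group, differences inside the intervals given are not excluded for each gene taken alone. The intervals are no limit of detection for the adjusted test. Slc17a6 missed that test (limma adjusted p = 0.123) with an interval from 0.81 to 1.45.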

Other observations

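Transcript records of the same gene gave like values. The 35 genes had 51 records, and 7 genes had more than 1. The ratio of the mutant mean to the wild-type mean ran from 0.919 to 0.958 over the 6 records of Tfe3, from 1.12 to 1.13 over the 3 of Tfeb and from 1.23 to 1.24 over the 2 of Atg4c. These records share most of their reads and are no separate evidence.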
